A study of Mus musculus with 16 samples.

Results

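Small leucine-rich proteoglycans of the stromal matrix, with the matrix protein gene Comp and the lipocalin gene Apod, were examined in mouse mammary organoids. The 10 genes were Dcn, Lum, Bgn, Fmod, Ogn, Aspn, Prelp, Omd, Comp and Apod, matched by symbol among 55487 gene identifiers. They were chosen by family and by measured values, since Comp and Apod were high in the WT libraries, so all comparisons of the 10 genes with WT are descriptions without a test. All 10 passed the filter on low counts, as did 24252 genes in all.

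Organoids are multicellular structures grown from tissue cells, here in a medium with EGF, B27, N-acetyl-cysteine and medium conditioned with Rspo1 and Noggin. Of 16 samples, 3 were WT from normal breast (WT1 to WT3). The others were labelled tumor breast and carried a PIK3CA mutation (n = 4, P1 to P4), a HER2 mutation (n = 4, H1 to H4) or both (n = 5, HP1 to HP5). The series title names the changes as PIK3CA H1047R and HER2 V777L. Genotype and tissue source cannot be told apart in any comparison with WT. The labels give no promoter or Cre driver of the mutations, no age, and no statement that each sample came from a separate mouse, so p-values measure the spread between these samples, which may be technical.

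Small leucine-rich proteoglycans are secreted proteins built from leucine-rich repeats, and many carry chondroitin, dermatan or keratan sulfate chains. They bind collagen fibrils and affect how the fibrils assemble, and decorin and biglycan also bind TGF-beta. In the mammary gland such proteins belong to the connective tissue around the ducts, where fibroblasts are a main source.

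Total counts ranged from 45545182 to 64168308 per sample. All 8 luminal and all 9 basal epithelial markers were detected (at least 3 counts) in every sample. Their summed levels were 2250 to 6016 and 265 to 1395 CPM (counts scaled to a common library size). By edgeR (adjusted p under 0.05), 5 of 9 basal markers were lower and 0 higher in HER2 than in PIK3CA mutants. These were Cnn1, Myh11, Mylk, Acta2 and Krt5, and 2.2% of all tested genes were lower. Against WT, 4 basal markers were lower in HER2 mutants, and 2 were higher in double than in HER2 mutants. The part of basal cell content in the Prelp, Fmod and Apod levels was not tested. The summed level of 16 fibroblast markers was 531 to 2682 CPM in WT, 490 to 970 in PIK3CA mutants, 370 to 1432 in HER2 mutants and 414 to 700 in double mutants. A sum rests mostly on its most abundant genes. Over the 15 tested fibroblast markers, the median log2 difference from WT was -1.31, -2.13 and -5.12 in PIK3CA, HER2 and double mutants. HP2 and HP3 stood apart from the other double mutants on the second principal component of all genes.

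Of the 10 genes, 3 held most of the reads. Per kilobase of exon, the mean level in WT was highest for Apod (598 CPM per kb), followed by Bgn (89.3) and Prelp (76.5), and these 2 neighbours did not differ beyond their spread (SD 39.5 and 11.99 CPM per kb). Comp followed at 12.9 CPM per kb, Lum at 4.83 and Dcn at 2.96, and Fmod, Aspn, Ogn and Omd lay between 0.233 and 1.334 CPM per kb. The SDs of Lum and Dcn (3.97 and 2.86 CPM per kb) were larger than the gap between them. In HER2 mutants the means of Prelp (17.7 CPM per kb, SD 10.07) and Bgn (14.8, SD 15.9) could not be ordered. In double mutants Prelp had the highest mean (24.1 CPM per kb, SD 9.37), ahead of Apod (6.07, SD 5.66). In PIK3CA mutants the means of Apod (41.6 CPM per kb, SD 38.7) and Prelp (41.2, SD 7.93) could not be ordered.

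The 250 bases before the RefSeq start site of these 3 leading genes are printed to show how unlike their promoters are. They are taken from RefSeq (GRCm38.p6), which holds a promoter for 7 of the 10 genes, and run 5′ to 3′ on the strand of the gene. Capitals mark every match to 4 motifs searched on both strands: TATAAA (the TATA box), GGGCGG (a GC box), TGANTCA (an AP-1 site) and TTCNNNGAA (a STAT site).

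Apod: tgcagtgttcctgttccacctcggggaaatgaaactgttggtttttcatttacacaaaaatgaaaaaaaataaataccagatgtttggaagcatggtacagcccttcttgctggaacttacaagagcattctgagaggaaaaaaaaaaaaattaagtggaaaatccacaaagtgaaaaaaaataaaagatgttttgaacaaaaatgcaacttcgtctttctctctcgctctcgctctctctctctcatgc
Bgn: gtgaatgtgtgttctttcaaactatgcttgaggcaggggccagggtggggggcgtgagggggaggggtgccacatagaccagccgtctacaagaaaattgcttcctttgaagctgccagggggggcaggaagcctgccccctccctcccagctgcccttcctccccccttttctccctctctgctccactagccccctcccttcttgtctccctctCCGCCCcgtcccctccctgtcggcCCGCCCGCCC
Prelp: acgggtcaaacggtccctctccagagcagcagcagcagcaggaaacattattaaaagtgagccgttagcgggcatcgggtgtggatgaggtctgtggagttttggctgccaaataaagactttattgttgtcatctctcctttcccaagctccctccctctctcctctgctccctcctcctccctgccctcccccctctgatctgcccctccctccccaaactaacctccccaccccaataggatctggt

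The Apod promoter lies at chr16:31314809-31315058 on the minus strand, the Bgn promoter at chrX:73483351-73483600 on the plus strand and the Prelp promoter at chr1:133921402-133921651 on the minus strand. Bgn had 3 GC box matches, at positions -34, -10 and -6 from the start, the last 2 overlapping. Apod and Prelp had no match to any of the 4 motifs. Of 32851 promoter windows of the same length, 32.7% held GGGCGG, 12.4% TATAAA, 6.75% TGANTCA and 7.02% TTCNNNGAA. GC content was 64.4% for Bgn, 55.6% for Prelp and 36.4% for Apod, against a median of 52.4% over all windows. Among the other genes, TATAAA was matched at 2 positions in Ogn, which overlap, and at 2 in Aspn. A match is a string of letters and no evidence of binding.

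In WT organoids the 10 genes together reached 2084 to 2803 CPM. The same sum was 299 to 529 CPM in PIK3CA mutants, 56.0 to 342 in HER2 mutants and 98.3 to 178 in double mutants. Apod made up 54.8% to 74.9% of that sum in WT, 12.7% to 48.5% in PIK3CA mutants, 0.417% to 17.8% in HER2 mutants and 0.342% to 19.9% in double mutants. P3 held the highest share of the PIK3CA mutants. For 5 of the 10 genes (Bgn, Aspn, Prelp, Comp and Apod) every WT sample was above every mutant sample, as for 4.69% of all tested genes, whereas Dcn, Lum, Fmod, Ogn and Omd overlapped. In bulk RNA, fewer cells of a type and less RNA per cell cannot be told apart.

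**Figure D1:**
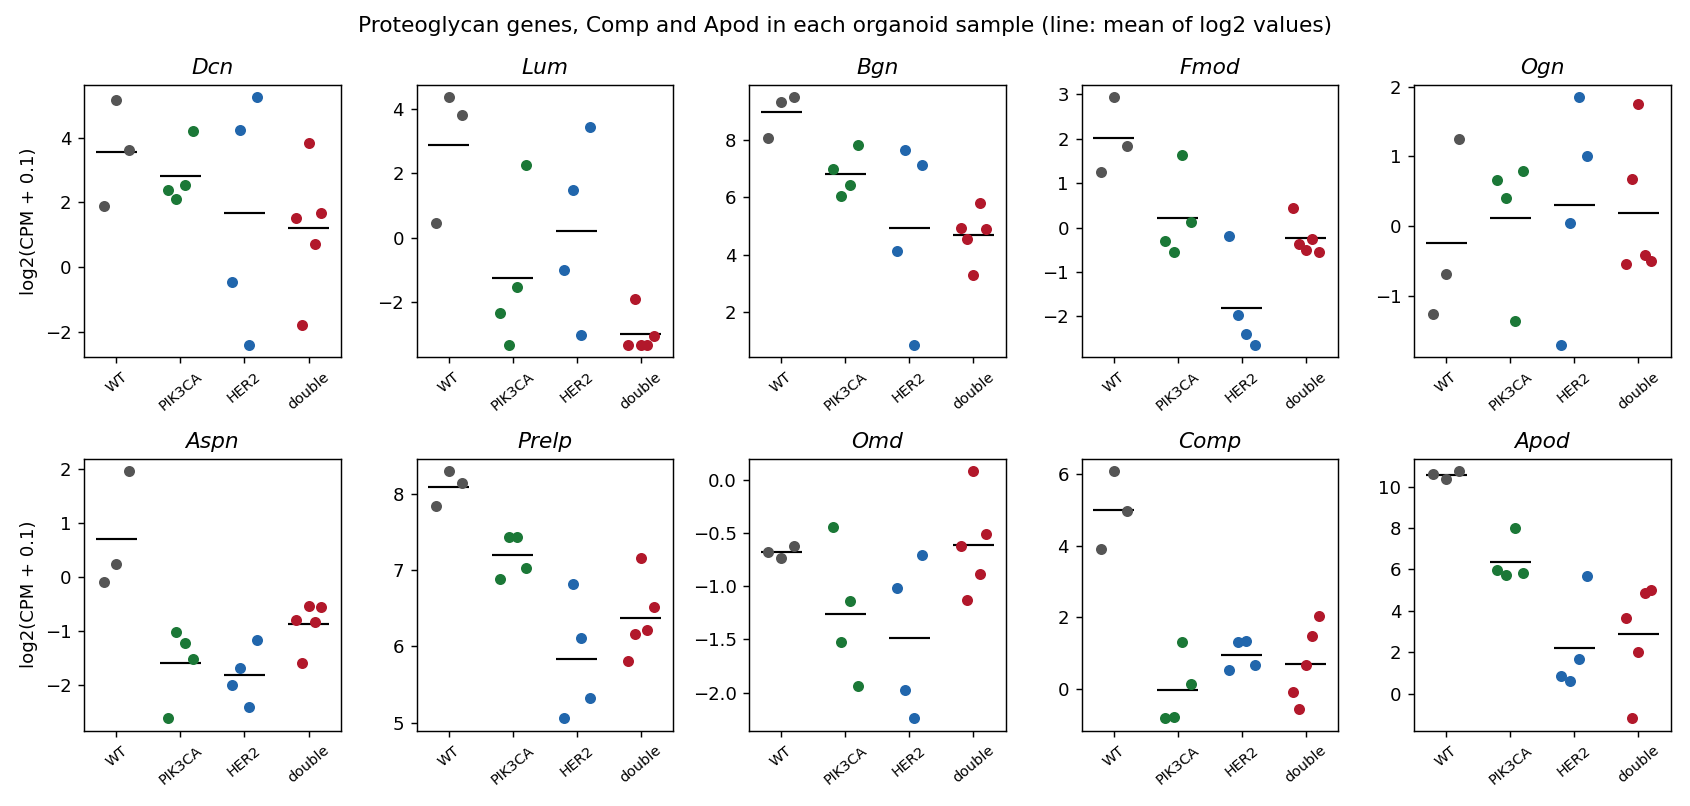
Expression of the 10 genes in each sample as log2(CPM + 0.1), 1 point per sample and 1 panel per gene, with the mean of the log2 values of each genotype as a line. The vertical axes differ between panels. WT points lie above all mutant points for Bgn, Aspn, Prelp, Comp and Apod, and Ogn and Omd show no such gap.

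Apod (ENSMUSG00000022548), which encodes a secreted lipid-binding lipocalin found in breast cyst fluid, lies on chromosome 16 (31296192 to 31314808, minus strand). Its level in WT1, WT2 and WT3 was 1561, 1330 and 1735 CPM. In the PIK3CA mutants P1 to P4 it was 62.1, 53.4, 256 and 56.4 CPM. WT samples were close to each other, all PIK3CA mutants lay below them, and P3 stood above the other PIK3CA mutants. HER2 mutants H1 to H4 had 1.70, 1.43, 3.05 and 50.5 CPM. Double mutants HP1 to HP5 had 12.3, 0.336, 3.91, 29.2 and 32.5 CPM. The HER2 mutants were low except H4, and the double mutants spread over the same range. The lowest value, in HP2, rested on 16 counts. The log2 difference from WT was -3.85 (SE 1.28) in PIK3CA mutants, -6.77 (SE 1.45) in HER2 mutants and -6.62 (SE 1.30) in double mutants.

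Every HER2 and every double mutant sample had less Apod than every PIK3CA mutant sample. The log2 difference was -2.92 for HER2 against PIK3CA mutants (95% interval -5.45 to -0.38, edgeR adjusted p = 0.186) and -2.77 for double against PIK3CA mutants (-5.09 to -0.45, edgeR adjusted p = 0.304). Neither passed the threshold of 0.05. Without H4, the HER2 difference was -5.70 (edgeR adjusted p = 0.0150), so this sample decided that call. Double and HER2 mutants did not differ detectably in Apod (log2 difference 0.14, 95% interval -2.11 to 2.40, edgeR adjusted p = 0.966).

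Comp (ENSMUSG00000031849), cartilage oligomeric matrix protein, is a pentameric thrombospondin that binds collagen, and its gene lies on chromosome 8 (70373558 to 70382066, plus strand). WT1 to WT3 had 14.96, 68.3 and 31.5 CPM. PIK3CA mutants had 0.461, 0.475, 2.37 and 1.00 CPM, HER2 mutants 1.34, 2.35, 2.40 and 1.47 CPM, and double mutants 0.833, 0.566, 1.47, 2.66 and 4.01 CPM. The highest mutant was below the lowest WT sample, and the 3 mutant genotypes overlapped. The log2 difference from WT was -5.16 (SE 0.742), -4.34 (SE 0.713) and -4.32 (SE 0.652) in PIK3CA, HER2 and double mutants. Between mutant genotypes the largest Comp difference was 0.83, double above PIK3CA mutants (95% interval -0.46 to 2.13, edgeR adjusted p = 0.647).

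Biglycan (Bgn, ENSMUSG00000031375, chromosome X, 73483602 to 73495933, plus strand), a chondroitin or dermatan sulfate proteoglycan close to decorin in sequence, had 270, 647 and 717 CPM in WT. The PIK3CA mutants had 125, 65.2, 86.8 and 228 CPM. HER2 mutants H1 to H4 had 17.3, 202, 1.71 and 140 CPM. HER2 mutants split, with H2 and H4 in the range of the PIK3CA mutants and H1 and H3 below it. Double mutants had 30.5, 22.9, 9.66, 55.8 and 29.4 CPM, all under the lowest PIK3CA mutant. The log2 difference of Bgn from WT was -2.11 (SE 0.950), -2.59 (SE 0.962) and -4.20 (SE 0.934) in PIK3CA, HER2 and double mutants. Double mutants against PIK3CA mutants gave -2.09 (95% interval -3.88 to -0.30, edgeR adjusted p = 0.312).

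Decorin (Dcn, ENSMUSG00000019929, chromosome 10, 97479609 to 97518143, plus strand), which coats collagen fibrils and binds TGF-beta, did not follow the WT and mutant split. WT samples had 3.62, 35.9 and 12.3 CPM, and PIK3CA mutants 5.14, 4.15, 5.67 and 18.5 CPM. HER2 mutants had 0.622, 18.8, 0.0890 and 38.0 CPM, and double mutants 2.78, 0.189, 14.2, 1.55 and 3.09 CPM. The highest sample of all was the HER2 mutant H4, and the lowest, H3 with 4 counts, was of the same genotype. No Dcn difference between mutant genotypes passed the test; HER2 against PIK3CA mutants gave 0.78 (95% interval -1.89 to 3.45, edgeR adjusted p = 0.795).

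Asporin (Aspn, ENSMUSG00000021388, chromosome 13, 49544443 to 49567565, plus strand), a relative of decorin with an aspartate stretch, was low throughout. WT samples had 0.839, 1.08 and 3.80 CPM, and mutant samples 0.0636 to 0.589 CPM. It was separated from WT in all 13 mutants, but the mutant values rested on 4 to 30 counts. Double mutants had 1.22 log2 units more than HER2 mutants (95% interval 0.01 to 2.42, edgeR adjusted p = 0.276).

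Prelp (ENSMUSG00000041577), a proline- and arginine-rich repeat protein that links basement membranes to connective tissue, lies on chromosome 1 (133910304 to 133921414, minus strand). WT samples had 230, 316 and 283 CPM, and PIK3CA mutants 118, 173, 174 and 131 CPM. HER2 mutants had 33.2, 113, 68.9 and 40.04 CPM. All PIK3CA mutants lay below WT and all HER2 mutants below the PIK3CA mutants. Double mutants had 55.8, 71.3, 143, 74.3 and 91.5 CPM, and only HP3 reached the range of the PIK3CA mutants. Prelp came closest of the 10 genes to passing the test between mutant genotypes, at -1.22 for HER2 against PIK3CA mutants (95% interval -1.95 to -0.49, edgeR adjusted p = 0.0542). It was called with DESeq2 (adjusted p = 0.0114) and limma (adjusted p = 0.0267), and in edgeR without H2 (adjusted p = 0.00998). Prelp shares 350 exonic bases, 9.68% of its exons, with Gm15851 on the opposite strand, and the strandedness of the counting is not given in the sources used here.

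Fmod (ENSMUSG00000041559) lies 115839 bases from Prelp on chromosome 1 (134037254 to 134048277, plus strand) and encodes fibromodulin, which controls collagen fibril growth and cross-linking. Its level was 2.29, 7.50 and 3.44 CPM in WT, and 0.716, 0.578, 2.99 and 0.982 CPM in PIK3CA mutants. HER2 mutants had 0.773, 0.154, 0.0890 and 0.0614 CPM and double mutants 0.583 to 1.26 CPM. H2, H3 and H4 were the lowest of all samples, and H1 lay among the double mutants. HER2 against PIK3CA mutants gave -2.25 (95% interval -3.77 to -0.74, edgeR adjusted p = 0.0846). This Fmod difference was called with DESeq2 (adjusted p = 0.0159), with limma (adjusted p = 0.0367) and in edgeR without H1 (-3.65, adjusted p = 0.00919). Without H1, Fmod was also called higher in double than in HER2 mutants (2.89, edgeR adjusted p = 0.0356), against 1.5 with all samples (edgeR adjusted p = 0.267).

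Lumican (Lum, ENSMUSG00000036446), a keratan sulfate proteoglycan that organises collagen fibrils, lies 46984 bases from Dcn on chromosome 10 (97565128 to 97572703, plus strand). WT samples had 1.26, 20.4 and 13.9 CPM, and PIK3CA mutants 0.0954, 0, 0.244 and 4.64 CPM. HER2 mutants had 0.396, 2.66, 0.0223 and 10.8 CPM. P4, H2 and H4 were the only mutants above the lowest WT sample. Double mutants had 0, 8, 0, 0 and 1 counts, at most 0.168 CPM. Double mutants stood at -6.53 log2 units from HER2 mutants (95% interval -10.38 to -2.68, edgeR adjusted p = 0.0639). They stood at -5.06 from PIK3CA mutants (-8.87 to -1.25, edgeR adjusted p = 0.248), and at -1.59 without P4 and -7.47 without HP2. The fitted size of both depends on counts near 0. Lum in double against HER2 mutants was called with DESeq2 (adjusted p = 0.0119) and in edgeR without H3 (-6.94, adjusted p = 0.0351).

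Osteomodulin (Omd, ENSMUSG00000048368) and osteoglycin (Ogn, ENSMUSG00000021390, also named mimecan) are neighbours of Aspn on chromosome 13, with gaps of 14896 bases from Aspn to Omd and 15223 from Omd to Ogn (49582462 to 49592822 and 49608046 to 49624501, plus strand). All 3 lie inside Cenpp, which is on the opposite strand and shares at most 7 exonic bases with them. Omd was between 0.111 and 0.962 CPM in all 16 samples, with 0.5003 to 0.551 CPM in WT and its highest value in HP3. Ogn had 0.315, 0.520 and 2.27 CPM in WT. Its highest mutants were H3 at 3.49 CPM and HP3 at 3.26 CPM, both above every WT sample. For both genes the highest sample of all was a mutant. The largest difference of these genes between mutant genotypes was 0.98 for Omd, double above HER2 mutants (95% interval -0.05 to 2.01, edgeR adjusted p = 0.306).

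Over the whole group, edgeR called 0 of the 10 genes in each of the 3 comparisons among mutants. Of all tested genes, 2.5% were called between double and HER2 mutants, 0.672% between double and PIK3CA mutants and 4.41% between HER2 and PIK3CA mutants. By direction, those shares were 1.03% higher and 1.47% lower, 0.309% and 0.363%, and 2.21% and 2.2%. At an unadjusted p under 0.05, the counts were 3, 4 and 3 of 10, against 17.8%, 12.4% and 19.4% of all tested genes. DESeq2 called 1, 0 and 2 of the genes in the same order, and limma 0, 0 and 2. The median log2 difference of the 10 genes was 0.08, -0.77 and -0.30 in the 3 comparisons, against -0.02, 0.04 and 0.07 over all genes. Bgn and Apod were the genes for which all double mutants lay below all PIK3CA mutants, as 4.5% of all tested genes did (3.42% the other way). Prelp and Apod were those for which all HER2 mutants lay below all PIK3CA mutants, as 6.87% did (5.63% the other way). No gene of the 10 separated double from HER2 mutants (2.38% of all genes lower, 2.21% higher).

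**Figure D2:**
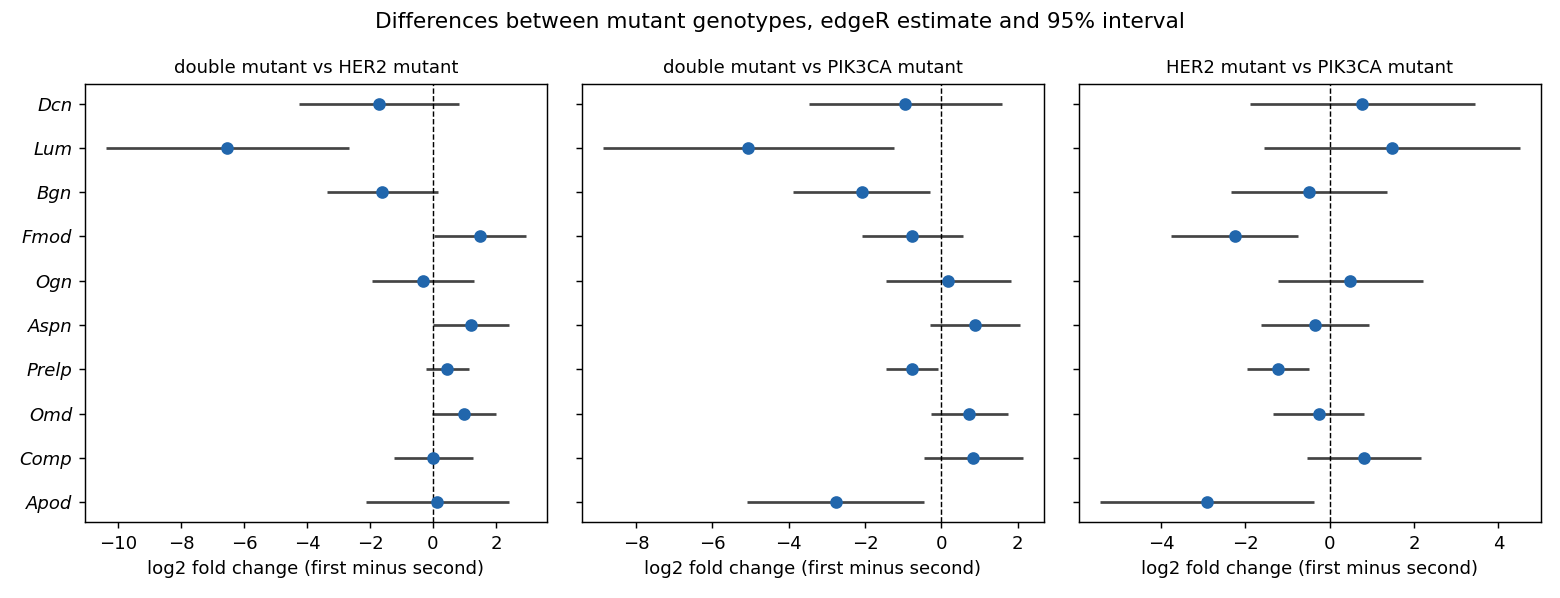
Log2 fold changes of the 10 genes between mutant genotypes, as edgeR estimates (points) with 95% intervals (lines). A value below 0 means a lower level in the genotype named first; none of the differences passed an adjusted p of 0.05, and the interval is widest for Lum.

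Against WT, whose values were used to choose genes, no call is given for the 10 genes. All samples lay below all WT samples for 5, 6 and 7 of the 10 genes in PIK3CA, HER2 and double mutants, and for 15.7%, 12.4% and 13.4% of all genes (13.8%, 9.81% and 9.68% lay above). The median log2 difference of the 10 genes from WT was -1.93, -2.35 and -2.26 in the same order, and over all genes -0.03, 0.03 and 0.01. These values are a description.

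Samples of a genotype differed from each other by more for some of the genes than for others. Among the 3 WT samples Apod spanned 1.30-fold and Prelp 1.37-fold, whereas Lum spanned 16.2-fold, Dcn 9.92-fold and Col3a1, a fibrillar collagen, 8.47-fold. WT1 was the lowest WT sample for Dcn, Lum, Bgn, Fmod, Ogn, Aspn, Prelp and Comp, and for Apod the lowest was WT2. Of the 4 HER2 mutants, H4 was highest for 5 of the 10 genes (Dcn, Lum, Aspn, Omd and Apod) and H3 lowest for 5 (Dcn, Lum, Bgn, Aspn and Omd). HP3 was the highest double mutant for Dcn, Ogn, Aspn, Prelp and Omd and the lowest for Bgn. H4 was the highest HER2 mutant for 25.0% of all tested genes, and HP3 the highest double mutant for 26.2%. H3 was the lowest HER2 mutant for 23.9% of them, and HP3 the lowest double mutant for 24.8%. The matching share for WT1 was not computed.

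The 3 mutant samples with most Dcn, Lum and Bgn were P4, H2 and H4. The same samples were the 3 highest mutants for 7 of 15 tested fibroblast markers (Pdgfrb, Col1a1, Col1a2, Col3a1, Mfap5, Thy1 and Twist2), and for 0.788% of all tested genes. This trio was singled out after its values were seen. Col3a1 was at 29.1, 24.3 and 39.5 CPM in P4, H2 and H4, and at 0 to 10.6 CPM in the other 10 mutants. Mfap5, a microfibril gene of fibroblasts, was at 3.72, 3.95 and 5.92 CPM there and at 0 to 0.443 CPM in the others. None of the macrophage, luminal or basal epithelial markers had P4, H2 and H4 as its 3 highest mutants. The part of stromal cell content in the levels of Dcn, Lum and Bgn was not tested. HP3 differed from this pattern, with 14.2 CPM of Dcn beside 0 counts of Lum and 0.216 CPM of Col3a1.

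**Figure D3:**
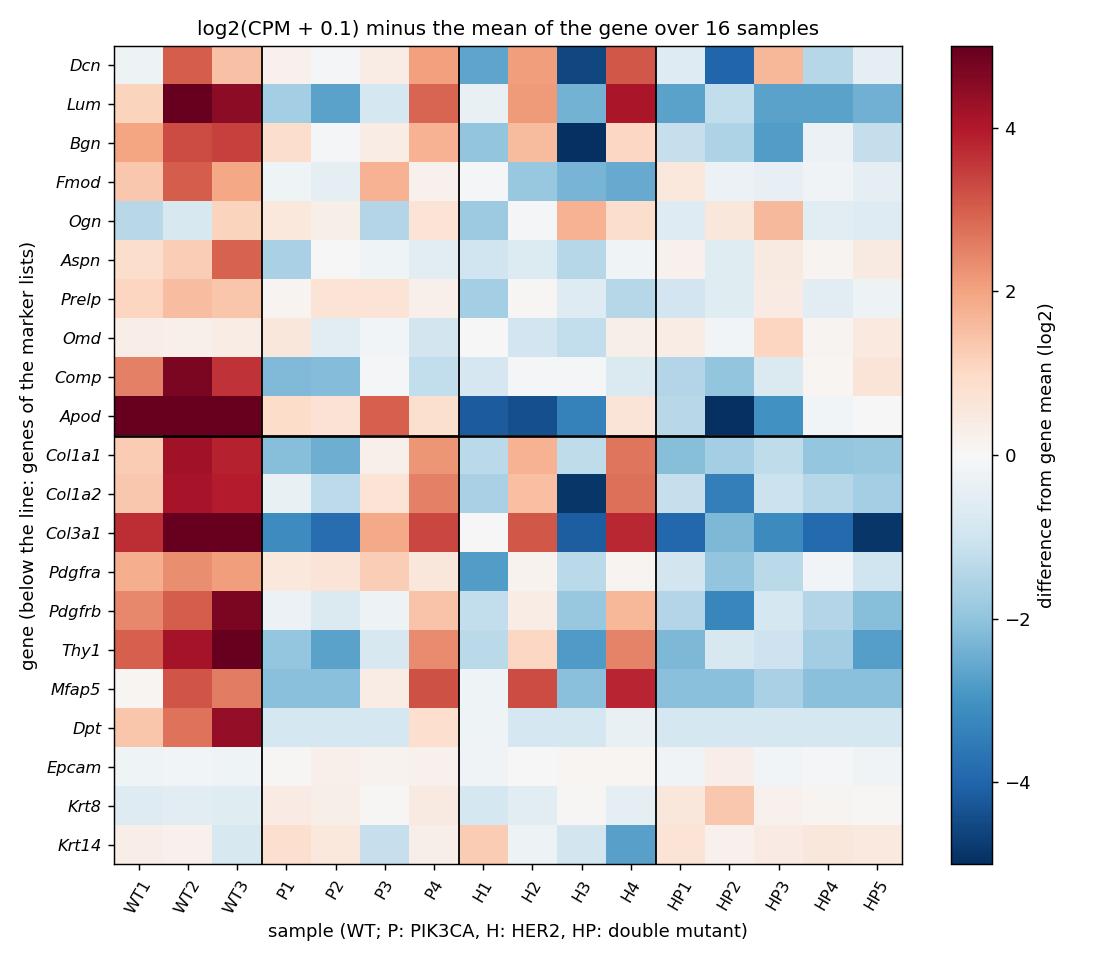
Level of the 10 genes (above the line) and of 11 genes from the fibroblast and epithelial marker lists (below it) in each sample, as log2(CPM + 0.1) minus the mean of the gene over 16 samples. Colours are capped at 5 log2 units either way. P4, H2 and H4 are red for Dcn, Lum and the collagen genes, and Apod is red in WT.

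Over the 13 mutant samples, 45 pairs of the 10 genes were correlated on log2 CPM, and none passed after Benjamini-Hochberg adjustment. The highest value was for Dcn and Bgn, with Pearson r = 0.733 (permutation p = 0.004, adjusted 0.18) and Spearman rho = 0.747 (permutation p = 0.00503, adjusted 0.226). Within genotypes r was 0.706, and without H3 and HP2, the samples farthest from the median of Dcn, it was 0.531. Dcn and Lum, neighbours in the genome, had r = 0.512 (permutation p = 0.0727, adjusted 0.657) and rho = 0.463 (permutation p = 0.113, adjusted 0.636), and r = 0.615 without those 2 samples.

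Among 11689 other genes ranked by Spearman rho over the 13 mutants, those most like Dcn were Col6a3 (0.962), Col1a2 (0.934) and Setd2 (0.934), the first 2 being collagen chains. The genes most like Bgn were Grik3 (0.907), Magi3 (0.890) and Txnrd3 (0.890), and those most like Comp were Ifi203 (0.863), Mxra8 (0.835) and Fryl (0.808). Apod was most like Mrtfb (0.962), Arid1b (0.956) and Mef2a (0.951), none of which is a matrix gene. These are the highest of many values and describe the 13 samples, which share genotypes, so no p is given.

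**Figure D4:**
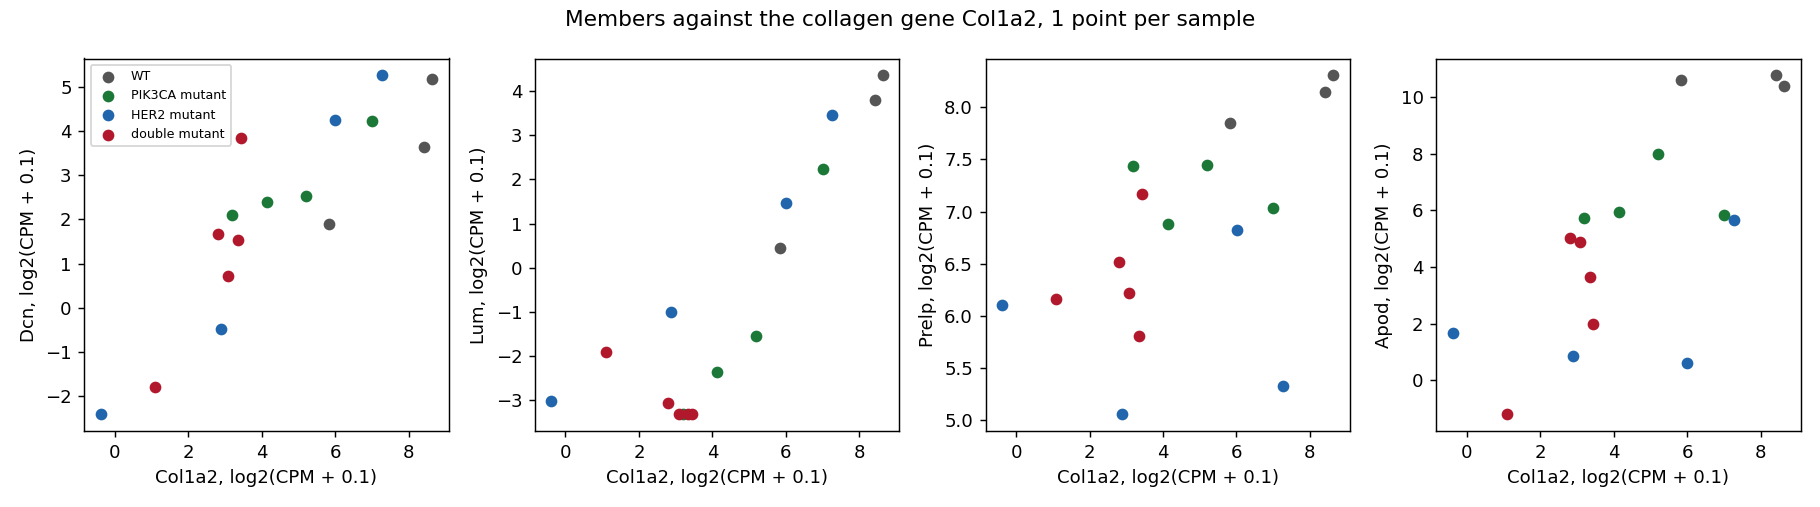
Level of Dcn, Lum, Prelp and Apod (vertical axes) against the collagen gene Col1a2 (horizontal axis), both as log2(CPM + 0.1), 1 point per sample coloured by genotype. Mutant points of Dcn rise with Col1a2 (Spearman rho 0.934 over 13 mutants), and the 3 WT points of Apod, which lie at 56.8 to 397 CPM of Col1a2, are above all mutant points.

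Related genes were read from lists of the same fit. Against WT, edgeR called 4.52% of all tested genes in PIK3CA mutants (1.49% higher, 3.03% lower), 10.4% in HER2 mutants (4.75% and 5.63%) and 11.8% in double mutants (5.03% and 6.72%). Of 8 tested genes of the wider leucine-rich proteoglycan family, 0 were called by edgeR in any comparison among mutants. Chad (chondroadherin) and Podn (podocan) fell against WT in PIK3CA mutants (log2 difference -2.51 and -2.65, edgeR adjusted p = 0.0284 and 0.0146), and again in HER2 mutants (-1.99 and -2.86, adjusted p = 0.0482 and 0.00738) and double mutants (-2.88 and -2.87, adjusted p = 0.00443 and 0.00289). With a sample left out, the PIK3CA call of Chad was lost in 5 of 7 fits and its HER2 call in 6 of 7. Kera and Epyc, which encode keratocan and epiphycan and are relatives of Lum and Dcn, were at most 0.04 CPM in all 16 samples.

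Of 16 fibrillar collagens and their partners, 1 fell in PIK3CA mutants against WT, 1 in HER2 mutants and 7 in double mutants, and none rose. In double mutants these included Col1a1 (log2 difference -5.32, edgeR adjusted p = 0.00434) and Col1a2 (-5.12, adjusted p = 0.0107). The PIK3CA call, Col12a1, was lost in each of the 7 fits that left out a sample. Among mutants, Col3a1 was the only call, lower in double than in HER2 mutants (-6.55, edgeR adjusted p = 0.0493), and it was lost in 7 of 9 fits that left out a sample. Fibroblast markers fell in 1, 3 and 10 of 15 tests against WT in PIK3CA, HER2 and double mutants, and in 7 for double mutants without HP2 and HP3. The PIK3CA call among these markers, Pdgfrb, was lost in 4 of 7 fits that left out a sample. Pdgfra, a receptor of fibroblasts, was at 93.6 to 134 CPM in WT and at 3.81 to 63.3 CPM in the mutants. Macrophage markers fell in 7, 5 and 7 of 8 tests against WT. Their summed level was 1053 to 3662 CPM in WT and 239 to 773 CPM in the mutants. The sum holds Cd14, which was at 492 to 600 CPM in WT and was not called against WT. Per marker, the median log2 difference from WT was -7.48, -4.07 and -8.54 in PIK3CA, HER2 and double mutants. Among mutants, edgeR called 4 of 8 lower and 0 higher in double than in HER2 mutants (lower for 1.47% of all tested genes). Leaving out a sample lost the Adgre1, Ptprc and Lyz2 calls of that comparison in 6, 7 and 3 of 9 fits. Lyz2, a macrophage lysozyme, was at 405 to 2649 CPM in WT, 142 CPM in H1, 58.2 CPM in H2 and at most 7.84 CPM in the other mutants. The part of these cells in the Comp, Apod, Bgn and Prelp levels was not tested.

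Of 24 genes for glycosaminoglycan chains, which decorate the proteoglycans, Chst12 (a chondroitin sulfotransferase) was the only call among mutants, lower in HER2 than in PIK3CA mutants (-1.11, SE 0.238, edgeR adjusted p = 0.0172). Xylt1, which starts the chains, fell against WT in all 3 mutant genotypes (-1.96, -2.60 and -3.52 in PIK3CA, HER2 and double mutants, edgeR adjusted p = 0.0469, 0.00808 and 0.000554). In PIK3CA mutants that Xylt1 call was lost in each of the 7 fits that left out a sample. A further list held 15 genes, of proteases that cut these proteins and of the protease enhancer Pcolce. Against WT, 4, 5 and 5 of them were called lower in PIK3CA, HER2 and double mutants, each time with Mmp2, Mmp13, Mmp19 and Pcolce. The only gene called higher against WT was Adamts7, in HER2 mutants. Adamts7, which cleaves Comp, also rose in HER2 against PIK3CA mutants (1.76, SE 0.241, edgeR adjusted p = 0.0012). It was lower in double than in HER2 mutants (-1.72, SE 0.223, edgeR adjusted p = 0.0014). Its level was 27.3 to 58.0 CPM in HER2 mutants and 9.25 to 18.2 CPM in the other samples. The HER2 mutants thus did not overlap any other sample for Adamts7. Comp RNA overlapped between the mutant genotypes. Comp protein was not measured, so any effect of Adamts7 on it was not tested.

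Decorin and biglycan also bind receptors. Egfr, a decorin-binding receptor in the same family as HER2, was lower in HER2 than in PIK3CA mutants (-0.65, SE 0.123, edgeR adjusted p = 0.00904) and higher in double than in HER2 mutants (0.55, SE 0.117, adjusted p = 0.0239). Cd44 was lower in HER2 than in PIK3CA mutants (-0.66, SE 0.180, edgeR adjusted p = 0.0487). This Cd44 call was lost in 7 of 8 fits that left out a sample. The other 7 receptors in the list, and all 10 genes of TGF-beta ligands, receptors and latent TGF-beta binding proteins, gave no edgeR call among mutants. The thrombospondins and matrilins related to Comp, and the lipocalins and apolipoproteins related to Apod, gave none either. Against WT, edgeR called Matn2 and Tgfb2 higher in all 3 mutant genotypes. It called Thbs2, Thbs4 and Tgfb3 lower in double mutants, and Tgfbr1 lower in HER2 mutants. Leaving out a sample lost the PIK3CA call of Matn2 in 5 of 7 fits and that of Tgfb2 in 7 of 7. The Thbs2 and Thbs4 calls were lost in 5 and 7 of 8 such fits. Of the lipocalins and apolipoproteins, Apoe and Rbp4 were called lower and Lcn2 higher in HER2 mutants against WT, and Apoe lower in double mutants. Apoe was at 146 to 633 CPM in WT and 7.43 to 126 CPM in the mutants, the same direction as Apod. Leaving out a sample lost its HER2 call in 2 of 7 fits and its double mutant call in 7 of 8. Lcn2, another lipocalin, was at 4931 to 5230 CPM in WT and 6820 to 16684 CPM in the mutants, the opposite direction to Apod. Its difference in HER2 mutants against WT was 1.17 (SE 0.308, edgeR adjusted p = 0.0262). That Lcn2 call was lost in 5 of 7 fits that left out a sample.

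Cartilage and tendon markers were examined because Comp and Fmod are prominent in those tissues. Acan was at most 12.7 CPM, Tnmd at most 0.07 CPM, and Col2a1 at 6.38 to 437 CPM. Col2a1 rose in double against HER2 mutants (4.67, SE 0.766, edgeR adjusted p = 0.00669) and fell in HER2 against PIK3CA mutants (-3.25, SE 0.729, adjusted p = 0.0209). Its highest sample, HP3, had 1.47 CPM of Comp, the median of the double mutants. Adipocyte markers summed to 0.921 to 7.37 CPM and endothelial markers to 1.00 to 29.3 CPM over all samples.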

How the data were processed

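The authors deposited read counts, whole numbers by Ensembl gene, for 16 samples. Per the submitters' processing notes, the tools named are bcl2fastq 2.20, STAR 2.0.4b, featureCounts 1.4.5 and DESeq2 1.33.5, with mm10. A second deposited table held normalized signal values by the authors. These equalled counts divided by DESeq2 size factors (largest relative difference 5.49e-10). Of 55774 entries, 287 repeated identifiers were dropped. Total counts were 45545182 to 64168308 per sample, and 3 counts was taken as detected.

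Genes were tested with edgeR 4.0.16 (R 4.3.3) by the quasi-likelihood test, two-sided, after filterByExpr and TMM scaling, in 1 fit over the 16 samples in which genotype alone was modelled. P-values were Benjamini-Hochberg adjusted over 24252 genes, with a threshold of 0.05. CPM is edgeR's, with a prior count of 2 for log2 CPM. Alternatives were DESeq2 1.42.0, limma 3.58.1 on the normalized table, other scaling, filters and sample choices. The scripts were checked on simulated data. Positions are from GENCODE M21 (GRCm38).

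The genes and lists were chosen with earlier results of these data known. Calls of the 10 genes against WT had been planned but are not reported, since WT values entered the choice. All 10 genes were named, as were, in each list, up to 3 genes past the threshold with the largest change, the defining genes of a list, and the 3 genes most like each of Dcn, Bgn, Comp and Apod (mean log2 CPM of at least 1). Any further gene was picked once its values were known. The same replicate numbers were not treated as pairs, since the labels state no link.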

Additional observations from a re-analysis of the deposited data

Results flagged for a closer look

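In 30 groups of 4 or 5 samples (1 per gene and mutant genotype), 3 held a sample far from the rest; chance gives about 1 in 20. Apod was highest in P3, at 8.003 log2 CPM (256 CPM), with the other PIK3CA mutants between 5.74 and 5.96. Lum was highest among double mutants in HP2, at -2.28 log2 CPM (0.168 CPM, 8 counts), with the others between -4.71 and -4.12. Aspn was lowest among double mutants in HP2, at -1.89 log2 CPM (0.231 CPM), with the others between -1.0001 and -0.67.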

How the results depend on the processing

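The number of genes called moved with the fit. Between double and HER2 mutants (606 called) it was 118 with a replicate block, 1715 with DESeq2, 37 with only these groups, 353 with only the 13 mutants, 1125 without HP2 and HP3 (an alternative chosen after seeing the data) and 256 to 975 leaving out a sample. Between double and PIK3CA mutants (163) it was 19 with the block, 666, 364 and 47 in the same order, and 17 to 143 leaving out a sample. Between HER2 and PIK3CA mutants (1069) it was 552 with the block, 2219 with DESeq2, 534 with only these groups and 427 to 1166. Of the calls between double and HER2 mutants, 41.1% were higher with TMM scaling and 30.2% with upper-quartile scaling. Against WT the number was 1869 with DESeq2, 4136 with only these groups and 396 to 1043 for PIK3CA mutants (1096), 1625 with the block, 541 with only these groups and 733 to 2693 for HER2 mutants (2518), and 1173 to 2961 for double mutants (2850).

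Of the 10 genes, 1 was called between double and HER2 mutants without the filter and with DESeq2 (0 to 1 leaving out a sample). Between HER2 and PIK3CA mutants, 1 was called with the block and without the filter, 2 with DESeq2 and with limma at either pseudocount, and 0 to 1 leaving out a sample. The block turned the sign of uncalled differences: Ogn 0.0028 and Comp -0.55 (double against HER2), Ogn -0.23 (double against PIK3CA) and Ogn -0.23 (HER2 against PIK3CA). It called Prelp between HER2 and PIK3CA mutants (-1.33, edgeR adjusted p = 0.0269). Same-numbered samples of the double and HER2 mutants correlated at 0.07 to 0.27, with 3 of 4 pairs over 0.1. Their mean was 0.16, against -0.04 for differently numbered pairs, of which H4 and HP1 reached 0.26. In the other comparisons the mean of same-numbered pairs was -0.05 to 0.04. Comp (double against HER2) was -0.062 with upper-quartile scaling and -0.28 and -0.29 with limma, Ogn (double against PIK3CA) was -0.92 without HP2 and HP3, and Dcn (HER2 against PIK3CA) was -1.38 and -1.42 with limma.

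Leaving out a sample turned the sign of other uncalled differences. Between double and HER2 mutants the range was -0.97 to 0.38 for Ogn, -0.31 to 2.93 for Apod and -0.45 to 0.24 for Comp. Between double and PIK3CA mutants it was -0.48 to 0.39 for Ogn and -1.01 to 0.026 for Fmod. Between HER2 and PIK3CA mutants it was -0.36 to 1.53 for Dcn, -0.19 to 0.86 for Ogn, -0.28 to 4.94 for Lum and -0.66 to 0.22 for Omd. The cause of these changes was not tested. Counts near 0 limit Lum, Aspn, Omd and Fmod.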
